A study of Homo sapiens with 12 samples.

Results

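Docetaxel resistance was described here as the change that 2 prostate cancer cell lines share. The quantity reported is the mean of the change with resistance in DU145 and the change with resistance in PC3, with each line given the same weight, read beside the sign of the change in each line. It was taken from 1 model over all 12 libraries of the series, 3 in each of 4 groups, and was tested for 24128 of the 38611 genes in the files. DU145 and PC3 are human prostate cancer lines derived from metastases. Resistant DU145 and resistant PC3 were grown under stepwise increases of docetaxel, and parental DU145 and parental PC3 carry the control label. The dose began at 10 for DU145 and 0.5 for PC3 and was raised until the half-maximal inhibitory concentration stood at 1800 for resistant DU145 and 15 for resistant PC3, in the submitters' unit nm/ml, which is left as given. Each line has 1 resistant derivative, so a line's change is that of a single selection, and the labels do not say whether drug was present at harvest. Nothing in the labels says that the 3 libraries of a group came from separate cultures, and the p-values below cover only how these libraries vary, which may be technical.

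Docetaxel is a taxane. It binds beta-tubulin, stabilises microtubules and holds dividing cells at the spindle checkpoint, and cells that leave this arrest without dividing often die. Routes to resistance known from cultured cells include pumping the drug out through P-glycoprotein (the product of ABCB1), a changed supply of tubulin isotypes or microtubule-binding proteins, altered apoptosis thresholds and shifts between epithelial and mesenchymal states. An average over lines can come from 1 line or from unequal opposing changes, so it is read here beside the sign in each line.

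The libraries held 62513103 to 72530254 counts and 25695 to 26401 genes with a count above 0. Levels below are CPM, the count of a gene relative to the TMM-scaled total of its library, and changes are log2 values (resistant minus parental) with their standard error. On principal components of 12202 genes with a mean of at least 5 CPM, the lines were split along component 1, which held 76.2% of variance, resistant from parental PC3 along component 2 (10.8%), and resistant from parental DU145 along component 3 (9.16%). By its counts, the first library of resistant PC3 stood apart from its group. Its counts differed from those of the other libraries by 27.5 and 27.6 in chi-square per gene, where those 2 differed by 13.95 and the pairs of other groups by 11.4 to 16.05. On component 4 (0.619% of variance) it was the second library that stood apart, with scores of -8.75, 23.3 and -14.1 in order. CTNNA1, whose loss is characteristic of PC3, averaged 2.23 CPM in resistant PC3 and 2.91 CPM in parental PC3, against 383 and 519 CPM in resistant and parental DU145, as the line labels say. Whether reads from overlapping genes were told apart is not known, because the sources used here do not give the strand setting of the counting. Of the 127 genes described with values, 76 share at least 1 base with another listed gene on either strand.

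The average was called (edgeR quasi-likelihood test, Benjamini-Hochberg adjusted p under 0.05) for 10395 of 24128 genes, 43.1% of those tested, with 5186 higher and 5209 lower in resistant cells. Of these, 2644 averaged at least a 2-fold change, 1176 higher and 1468 lower. In DU145 alone 39.6% of genes were called and in PC3 alone 44.0%. Fewer genes changed alike in both lines. Only 3243 genes, 13.4% of those tested and 31.2% of those called in the average, were called in each line on its own with the same sign, 1577 higher (6.54% of those tested) and 1666 lower (6.9%). Without the first library of resistant PC3 these numbers were 1481 and 1655. The other 7152 averages (68.8%) came from genes that did not meet this condition. In 2006 the PC3 change alone was called and the DU145 change had the same sign, and in 1563 the DU145 change alone was called and the PC3 change had the same sign. A further 1398 averages belonged to genes called in both lines with opposite signs, where the larger of the opposing changes set the sign of the mean. In all, 2920 genes (12.1%) changed in opposite directions, close to the number that changed alike.

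**Figure D1:**
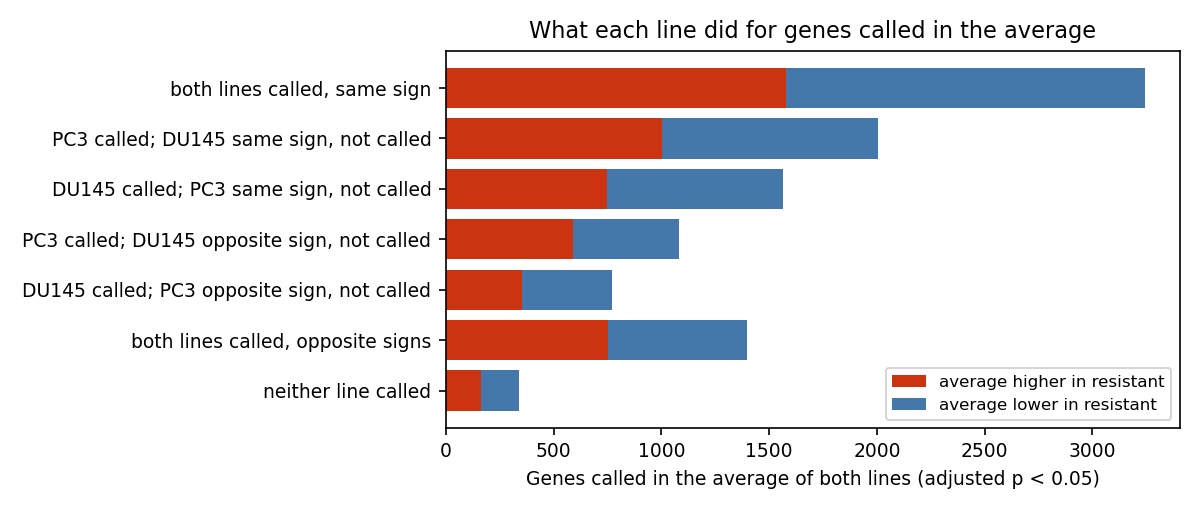
Genes called in the average of both lines, split by what each line did alone (horizontal axis, number of genes; red, average higher in resistant cells; blue, average lower). The 3243 genes called in both lines with the same sign are the top bar, and 1398 genes called with opposite signs still have a called average.

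Across the 12202 genes with a mean of at least 5 CPM, the change in DU145 and the change in PC3 had a Pearson r of -0.0098 and a Spearman rho of 0.054, across genes, which are not independent replicates. The sign was the same for 52.0% of them. Among the 6163 genes called in both lines, 52.6% had the same sign, while 445 of the 500 genes with the smallest average p did, as the average test itself favours genes that move alike. Of the 3243 genes that changed alike, 1584 (48.8%) also differed between the lines in the size of the change, against 42.1% of all genes, and the median ratio of the smaller to the larger change was 0.599. A change of at least 2-fold in each line was found for 232 higher and 298 lower genes. The genes that changed alike had a median level of 45.2 CPM and 93.5% were protein-coding, against 5.36 CPM and 63.6% for all genes tested. Level sets how easily a change is called, so the share called alike is also given for genes of at least 5 CPM, where it was 24.4% (11.98% higher, 12.41% lower), beside 21.5% called with opposite signs and 68.4% called in the average (34.9% higher, 33.5% lower).

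**Figure D2:**
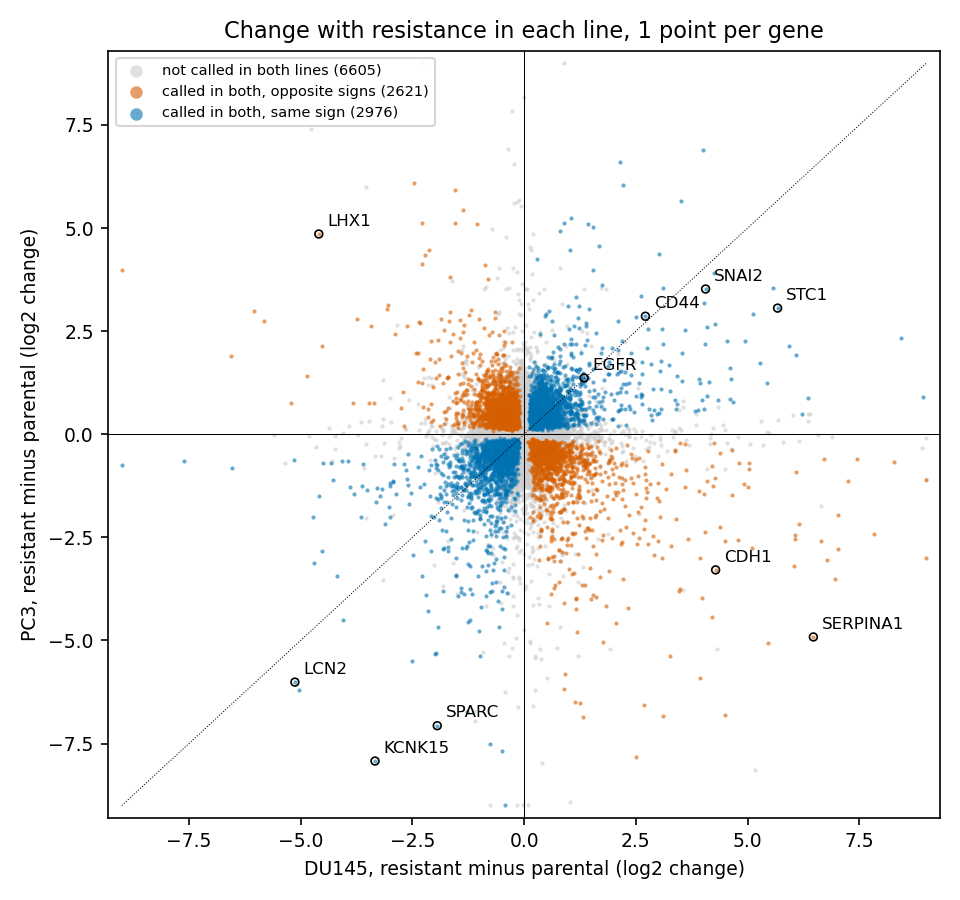
Change with resistance in DU145 (horizontal axis) and in PC3 (vertical axis), in log2 units, for 12202 genes with a mean of at least 5 CPM; blue, called in both lines with the same sign; orange, called in both with opposite signs; grey, all others; the dotted line marks equal change, and points beyond 9 units are drawn at 9. The 2976 genes that changed alike and the 2621 that changed oppositely fill all 4 quadrants; CD44 and EGFR lie near the line of equal change.

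The 6 genes whose average had the smallest p-values were CD44, PLAU, LAMB3, EFHD2, MMP14 and EPHA2, and all were higher in resistant cells of both lines. They were chosen from these same libraries, so a lack of overlap between groups is a description. The same holds for most genes below, and the share of all genes without overlap was not counted. CD44, the hyaluronan receptor, had 1841, 1758 and 1699.5 CPM in resistant DU145, against 283, 272 and 253 CPM in parental DU145. In PC3, CD44 had 2380.0, 2314 and 2455 CPM in resistant libraries, against 317, 328 and 338 CPM in parental libraries. The groups did not overlap in either line, and the changes were of nearly the same size, 2.71 in DU145 and 2.86 in PC3, for an average of 2.79 ± 0.03 (edgeR adjusted p = 1.77e-17). PLAU, the urokinase plasminogen activator that starts a cascade of matrix proteolysis, had 1124, 1046 and 1090.1 CPM in resistant DU145, against 158, 153 and 165 CPM in parental DU145. In PC3, PLAU had 2225, 2168 and 2191 CPM in resistant libraries, against 387, 378 and 355 CPM in parental libraries, again without overlap. Its average change was 2.66 ± 0.03 (edgeR adjusted p = 1.77e-17). LAMB3, the laminin beta-3 chain of epithelial basement membranes, had 718, 729 and 698 CPM in resistant DU145, against 119, 125 and 136 CPM in parental DU145. In PC3, LAMB3 had 397, 393 and 407 CPM in resistant libraries, against 55.9, 53.9 and 58.1 CPM in parental libraries. It averaged 2.66 ± 0.03 and likewise kept resistant and parental libraries apart. EFHD2, a calcium-binding actin-associated protein, averaged 1.76 ± 0.03 with 1.87 in DU145 and 1.65 in PC3. For the membrane metalloprotease MMP14 and the ephrin receptor EPHA2, the shared sign hid unequal changes. MMP14 rose by 4.02 in DU145 and 0.61 in PC3, and EPHA2 by 2.51 and 0.92. EGFR, the receptor of epidermal growth factor, rose by 1.34 in DU145 and 1.37 in PC3, for an average of 1.36 ± 0.03. PLAU overlaps C10orf55, CD44 overlaps CD44-AS1, EGFR overlaps EGFR-AS1 and LAMB3 contains a microRNA gene, so part of their counts could belong to those transcripts.

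**Figure D3:**
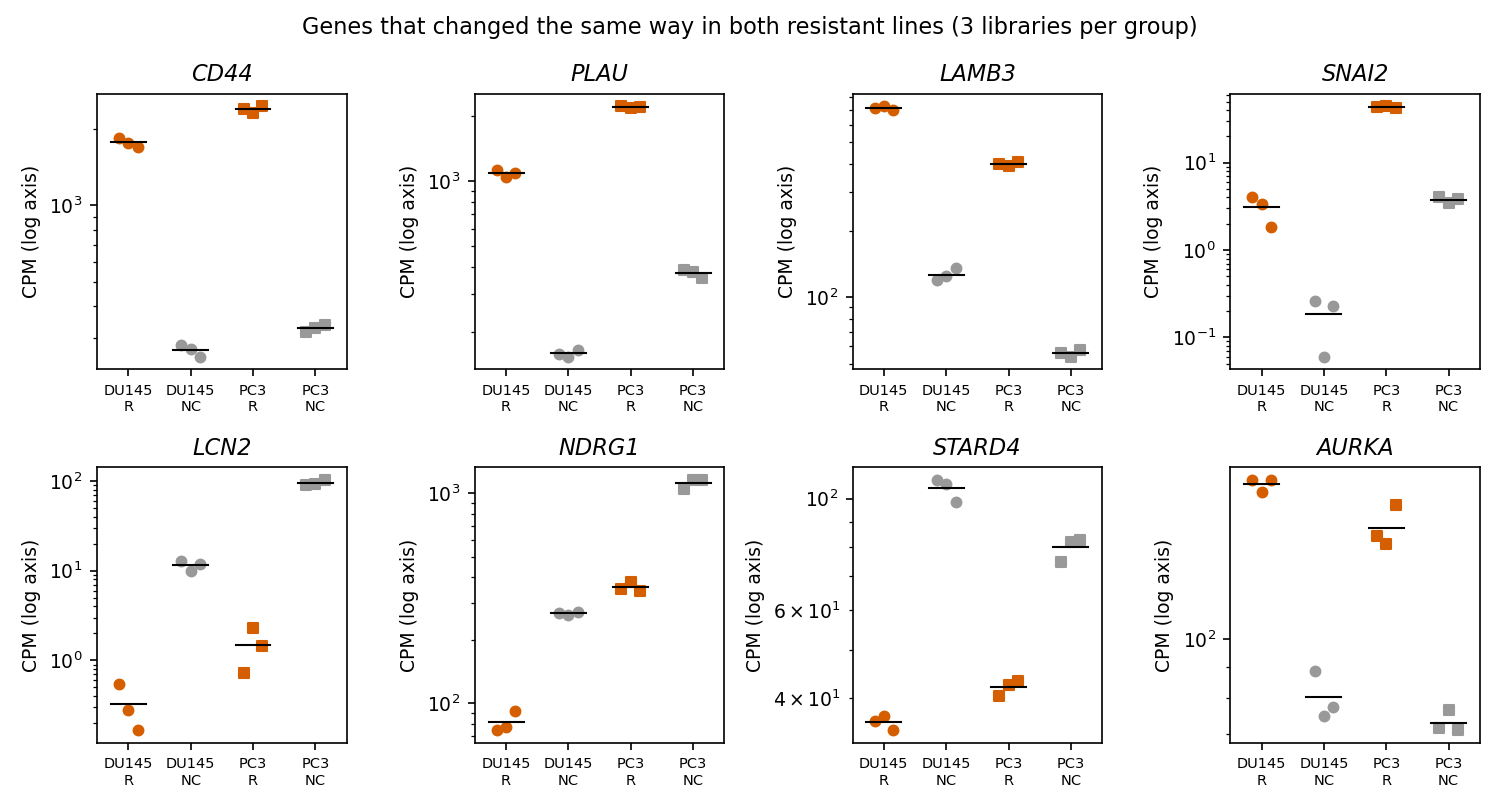
CPM (log axis) of 8 genes that changed the same way in both resistant lines; each point is a library, 3 per group, orange for resistant and grey for parental, circles for DU145 and squares for PC3, and the bar is the group mean. In each panel resistant and parental libraries of a line do not overlap, which follows in part from choosing the genes in these same libraries.

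Ranked by the smaller of the line changes among genes with at least 1 CPM in the higher group of each line, 8 of the 10 genes highest in resistant cells were SNAI2, ABCC9, CRISPLD2, CXCR4, RAB40B, STC1, CPA6 and ADGRG2. Since both sign and size chose them, their values are given as a description. SNAI2 encodes Slug, a repressor of epithelial genes in epithelial-mesenchymal transition. SNAI2 had 4.098, 3.39 and 1.82 CPM in resistant DU145, against 0.2601, 0.0601 and 0.231 CPM in parental DU145. In PC3, SNAI2 had 43.2, 44.5 and 42.4 CPM in resistant libraries, against 4.07, 3.45 and 3.81 CPM in parental libraries. Both lines gained it by a like amount (4.06 and 3.52), from a level near 0 in parental DU145. STC1, the secreted hormone stanniocalcin-1, had 52.4, 61.1 and 53.6 CPM in resistant DU145, against 0.563, 0.556 and 2.18 CPM in parental DU145. In PC3, STC1 had 187, 188 and 161 CPM in resistant libraries, against 21.7, 23.5 and 19.2 CPM in parental libraries, and the groups were apart in each line. CXCR4, the receptor of the chemokine CXCL12, was scarce throughout. It reached 2.43, 2.62 and 3.303 CPM in resistant DU145, against 0, 0.225 and 0.615 CPM in parental DU145. In PC3, CXCR4 reached 4.56, 4.09 and 3.85 CPM in resistant libraries, against 0.325, 0.312 and 0.2496 CPM in parental libraries. Its average change was 3.56 ± 0.55, the widest standard error of these 8 genes. ABCC9, a regulatory subunit of ATP-sensitive potassium channels rather than a drug pump, averaged 4.08 ± 0.25. CRISPLD2, a secreted protein, averaged 4.07 ± 0.27. RAB40B, a small GTPase adaptor of a ubiquitin ligase, averaged 3.32 ± 0.36; CPA6, a secreted carboxypeptidase, 2.95 ± 0.42; and the adhesion receptor ADGRG2 3.38 ± 0.49. ABCC9, RAB40B, CPA6 and ADGRG2 overlap noncoding genes or pseudogenes and are uncertain for that reason.

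By the same ranking the 10 lowest were SUSD2, PCDHB10, KCNK15, CRB3, PADI1, LCN2, CYP27C1, LTB, SELENOP and NKILA. LCN2, lipocalin-2, an iron-siderophore carrier secreted by epithelia under inflammatory signals, had 0.542, 0.277 and 0.167 CPM in resistant DU145, against 12.7, 10.03 and 11.98 CPM in parental DU145. In PC3, LCN2 had 0.733, 2.31 and 1.43 CPM in resistant libraries, against 91.1, 92.1 and 104 CPM in parental libraries. Resistant libraries of both lines kept a small fraction of the parental level (average -5.57 ± 0.26). CRB3, a component of the apical polarity complex, fell to 8.21, 8.11 and 9.09 CPM in resistant DU145, against 143, 138 and 142 CPM in parental DU145. In PC3, where it was already scarce, CRB3 fell to 0, 0 and 0.156 CPM in resistant libraries, against 0.739, 0.624 and 2.496 CPM in parental libraries. LTB, lymphotoxin beta of the tumour necrosis factor family, averaged -4.66 ± 0.34, and NKILA, a noncoding RNA of the NF-kB pathway that overlaps PMEPA1, averaged -5.69 ± 0.54. KCNK15, a 2-pore potassium channel, had 0.181, 0.616 and 0.606 CPM in resistant DU145, against 5.58, 4.04 and 4.57 CPM in parental DU145. In PC3, KCNK15 had 0.254, 0.382 and 0.142 CPM in resistant libraries, against 57.5, 59.6 and 70.7 CPM in parental libraries, where it fell by 7.92 on the log2 scale. KCNK15 overlaps an antisense gene and RIMS4. SELENOP, the plasma selenium carrier, averaged -4.75 ± 0.46 but overlaps CCDC152. SUSD2, a sushi-domain membrane protein, averaged -3.81 ± 0.54 and the clustered protocadherin PCDHB10 -3.56 ± 0.22. Both remaining genes were at 0 in a resistant group. PADI1, a peptidylarginine deiminase of epidermal differentiation, had no count in resistant PC3 and 1.21 CPM in parental PC3, which is at least 82.2-fold lower when the resistant group is set at a floor of 3 counts. CYP27C1, a retinoid desaturase, had no count in resistant DU145 and 3.49 CPM in parental DU145, at least 233-fold lower. Low counts varied between libraries more than independent counts would, with a variance of 7.69 to 8.39 times the mean at 5 to 10 counts, so such bounds may be too high.

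Gene lists drawn from what is known of taxanes, the cell cycle, stress responses and cell identity were counted next. Each count stands beside the same shares over all genes tested, of which 21.5% were higher and 21.6% lower in the average, 6.54% higher and 6.9% lower in both lines and 12.1% opposite. Over genes of at least 5 CPM, nearer to most lists in level, these shares were 34.9%, 33.5%, 11.98%, 12.41% and 21.5%. Of the lists, mitosis and spindle checkpoint genes moved alike most often. These genes drive chromosome condensation, spindle assembly and anaphase, the steps docetaxel interrupts. Of 28 measured, 26 were higher in the average, none lower and 2 not called, and 19 (67.9%) were higher in both lines, against 6.54% of all genes and 11.98% of genes of at least 5 CPM. The median change was 0.22 in DU145 and 0.90 in PC3. Without the first library of resistant PC3, 17 were higher in both. AURKA, the kinase of spindle poles, had 182, 174 and 182 CPM in resistant DU145, against 88.6, 74.7 and 77.3 CPM in parental DU145. In PC3, AURKA had 147, 143 and 166 CPM in resistant libraries, against 71.4, 76.6 and 70.9 CPM in parental libraries, and no resistant library overlapped a parental one. Its average change was 1.11 ± 0.05 (edgeR adjusted p = 3.33e-11). UBE2C, the ubiquitin-conjugating enzyme of the anaphase-promoting complex, averaged 1.07 ± 0.04 and CDK1, the mitotic kinase, 0.70 ± 0.04. CDC20, the activator of that complex and target of the checkpoint, rose by 0.31 in DU145 and 1.53 in PC3, and TOP2A, the topoisomerase of chromosome decatenation, by 0.20 and 0.91. The cyclin CCNB2 averaged 0.56 ± 0.06, and its rise in DU145 (0.22, edgeR adjusted p = 0.0422) was lost in 8 of the 12 fits without 1 library. NEK2 and CENPF were the 2 members called in both lines with opposite signs, falling by 0.67 and 0.36 in DU145 and rising by 1.37 and 0.56 in PC3. TPX2, a spindle assembly factor from the list of microtubule-associated proteins, averaged 0.78 ± 0.03.

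Many genes of this group are repressed outside late cell cycle phases through the cell cycle genes homology region, CHR, with the letters TTTGAA. On either strand of a window from 250 bases before to 50 after any RefSeq start, the letters were found for 14 of the 23 list genes with a window (60.9%), against 18.2% of 27195 genes; a match of 6 letters is not a shown site. Of the 14 genes, CENPF changed in opposite directions, NUF2, MAD2L1 and PLK1 were called in PC3 alone, and the others rose in both lines. The letters are given for 4 that rose in both lines, 5′ to 3′ on the strand of the gene. The match is in capitals (TTCAAA is TTTGAA on the other strand), with 20 bases on each side, from RefSeq on GRCh38.p14. Only the first match found is shown for each gene. Matches also began at -65 for CDC20, at -69, -13 and 10 for CDK1 and at -151 for TOP2A, relative to a listed start. A gene can have several listed starts, so a site can recur. The stretches shown are CDC20 chr1:43358783-43358828, CDK1 chr10:60778150-60778195, CCNB2 chr15:59105097-59105142 and TOP2A chr17:40418065-40418110 (minus strand).
CDC20: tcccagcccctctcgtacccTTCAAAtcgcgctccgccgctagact
CDK1: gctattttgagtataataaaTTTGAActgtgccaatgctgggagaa
CCNB2: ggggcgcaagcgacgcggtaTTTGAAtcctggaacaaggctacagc
TOP2A: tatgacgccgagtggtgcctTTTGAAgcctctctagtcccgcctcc

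DNA replication and S phase genes were higher in the average for 28 of 28, of which 12 (42.9%) were higher in both lines, against 11.98% of genes of at least 5 CPM, and 5 changed in opposite directions. The median change of the list was 0.16 in DU145 and 0.72 in PC3, so PC3 gave the larger part of these averages. RFC3, a subunit of the clamp loader, rose by 1.25 in DU145 and 1.17 in PC3, and RRM2, the small subunit of ribonucleotide reductase, by 0.83 and 0.79. MCM5, of the replicative helicase, rose by 0.36 in each line. GINS3, of the same helicase complex, averaged 1.19 ± 0.08 but rose more in PC3 (1.69) than in DU145 (0.68). Cytosolic ribosomal proteins were higher in the average for 24 of 43 and lower for 3, with 8 (18.6%) higher in both lines, nearer to the 11.98% of genes of at least 5 CPM; RPL5, RPLP1 and RPL4 averaged 0.45 ± 0.03, 0.40 ± 0.06 and 0.39 ± 0.03, and these genes have many pseudogenes that may share their reads.

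The unfolded protein response moved the other way. This pathway senses misfolded protein in the endoplasmic reticulum and raises chaperones and degradation factors through ATF6, IRE1 and PERK. All 22 measured members were lower in the average. Only 10 (45.5%) were lower in both lines, against 6.9% of all genes and 12.41% of genes of at least 5 CPM, and 4 changed in opposite directions, since the median change was -1.05 in DU145 and -0.15 in PC3. EDEM1, which directs misfolded glycoproteins to degradation, had 77.7, 75.7 and 82.2 CPM in resistant DU145, against 144, 144 and 135 CPM in parental DU145. In PC3, EDEM1 had 99.02, 99.8 and 96.8 CPM in resistant libraries, against 236, 256 and 250.1 CPM in parental libraries. The groups were apart in both lines, for an average of -1.09 ± 0.03 (edgeR adjusted p = 8.68e-13). HYOU1, a chaperone of the HSP70 family, fell by a like amount in each (-0.67 and -0.74), and the ubiquitin ligase SYVN1 fell more in DU145 (-1.003) than in PC3 (-0.73). HSP90B1, the reticulum's HSP90, fell by 1.66 in DU145 and 0.32 in PC3. The disulfide isomerase PDIA6 averaged -0.36 ± 0.02 and the lectin chaperone CANX -0.50 ± 0.02. HSPA5, the chaperone BiP and a common readout of the pathway, had 788, 766 and 788 CPM in resistant DU145, against 2222, 2225 and 2096 CPM in parental DU145. In PC3, HSPA5 had 834, 832 and 815 CPM in resistant libraries, against 672, 714 and 693 CPM in parental libraries. Its average of -0.61 ± 0.02 is therefore the mean of a fall in DU145 (-1.48) and a rise in PC3 (0.25), and CALR, HERPUD1 and PDIA4 were the other members called with opposite signs.

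ATF6 acts through the ER stress element, CCAAT and CCACG with 9 free bases between them. On either strand of the same windows, it was found for 7 of 21 list genes with a window (33.3%) and for 25 of 27195 genes in all (0.0919%). Of the 7, PDIA6, CANX and HSP90B1 fell in both lines, HSPA5 and CALR changed in opposite directions, and XBP1 and CRELD2 were called in DU145 alone. The element is shown in capitals, with 20 bases on each side, for the 3 that fell in both lines and for HSPA5. The stretches shown are PDIA6 chr2:10812833-10812891 (minus strand), CANX chr5:179698758-179698816, HSP90B1 chr12:103930196-103930254 and HSPA5 chr9:125241371-125241429 (minus strand). Only the first match found is shown for each gene. HSP90B1 had another on the other strand, beginning at -89. Matches in CANX began at -151, -9 and -189 relative to a listed start, and whether these are separate sites was not examined. The search itself fixed the letters outside the 9 free positions, so sharing them carries no information on how these genes changed.
PDIA6: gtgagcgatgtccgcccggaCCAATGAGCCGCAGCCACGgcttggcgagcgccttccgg
CANX: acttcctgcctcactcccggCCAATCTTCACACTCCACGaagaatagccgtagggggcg
HSP90B1: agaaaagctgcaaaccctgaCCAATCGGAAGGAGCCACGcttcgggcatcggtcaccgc
HSPA5: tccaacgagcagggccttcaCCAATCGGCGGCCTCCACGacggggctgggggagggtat

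The ATF4 and amino acid stress list, a neighbouring branch, did not move as a group. Of 22 members, 8 were higher and 11 lower in the average, with 3 higher and 6 lower in both lines and 7 opposite. SLC7A11, the cystine transporter, averaged -1.24 ± 0.07, and CHAC1, a glutathione-degrading enzyme, -1.19 ± 0.09, both by nearly equal amounts in the lines. The transcription factor CEBPB averaged 0.93 ± 0.06. The amino acid response element TGATGNAA lay in the windows of 6 of 19 list genes (31.6%) and of 4.46% of all genes; of the 6, CHAC1 and SLC1A4 were called alike in both lines and ATF3, ASNS, SLC3A2 and SLC1A5 oppositely. In the list of NRF2 and glutathione genes, 10 of 28 were higher and 11 lower in the average, with 4 higher and 3 lower in both lines and 10 opposite. AKR1C1, an aldo-keto reductase, averaged 1.33 ± 0.16 and OSGIN1 1.35 ± 0.10. Without the first library of resistant PC3, 2 rather than 4 of the list were higher in both lines.

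Cholesterol and fatty acid synthesis genes, the targets of the SREBP transcription factors, were lower in both lines for 18 of 32 (56.2%) and higher for 2, with 22 lower and 3 higher in the average. STARD4, a sterol carrier, had 35.96, 36.8 and 34.5 CPM in resistant DU145, against 109, 107 and 98.3 CPM in parental DU145. In PC3, STARD4 had 40.4, 42.4 and 43.3 CPM in resistant libraries, against 74.8, 82.1 and 82.8 CPM in parental libraries, without overlap in either line. It averaged -1.24 ± 0.04 (edgeR adjusted p = 2.91e-12). TM7SF2, a sterol reductase, averaged -2.07 ± 0.08, and SREBF2, which encodes the sterol-regulated factor itself, -1.02 ± 0.04, with the larger fall of both in PC3. STARD4 and SREBF2 overlap other genes.

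Hypoxia and glycolysis genes were lower in the average for 20 of 29 and higher for 7, with 10 lower and 2 higher in both lines and 7 opposite. NDRG1, a stress gene induced by low oxygen, had 74.5, 76.7 and 92.2 CPM in resistant DU145, against 271, 263 and 271 CPM in parental DU145. In PC3, NDRG1 had 351, 379.7 and 342 CPM in resistant libraries, against 1049, 1164 and 1161 CPM in parental libraries. Resistant libraries lay below all parental ones of their line, and the changes were alike (-1.73 and -1.65). PFKFB4, a regulator of glycolytic flux, averaged -2.08 ± 0.08. EPAS1, which encodes the oxygen-regulated factor HIF-2alpha, was higher instead. It rose by 3.53 in DU145 and 1.97 in PC3, with 117 ± 5.86 CPM in resistant and 10.1 ± 1.27 CPM in parental libraries in DU145 and 36.6 ± 2.25 CPM in resistant and 9.36 ± 1.45 CPM in parental libraries in PC3 (SD, n = 3 each). Without the first library of resistant PC3, a comparison added after the data were seen, 11 replication genes were higher in both lines, and 9 unfolded protein response, 18 cholesterol and 10 hypoxia genes were lower in both.

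**Figure D4:**
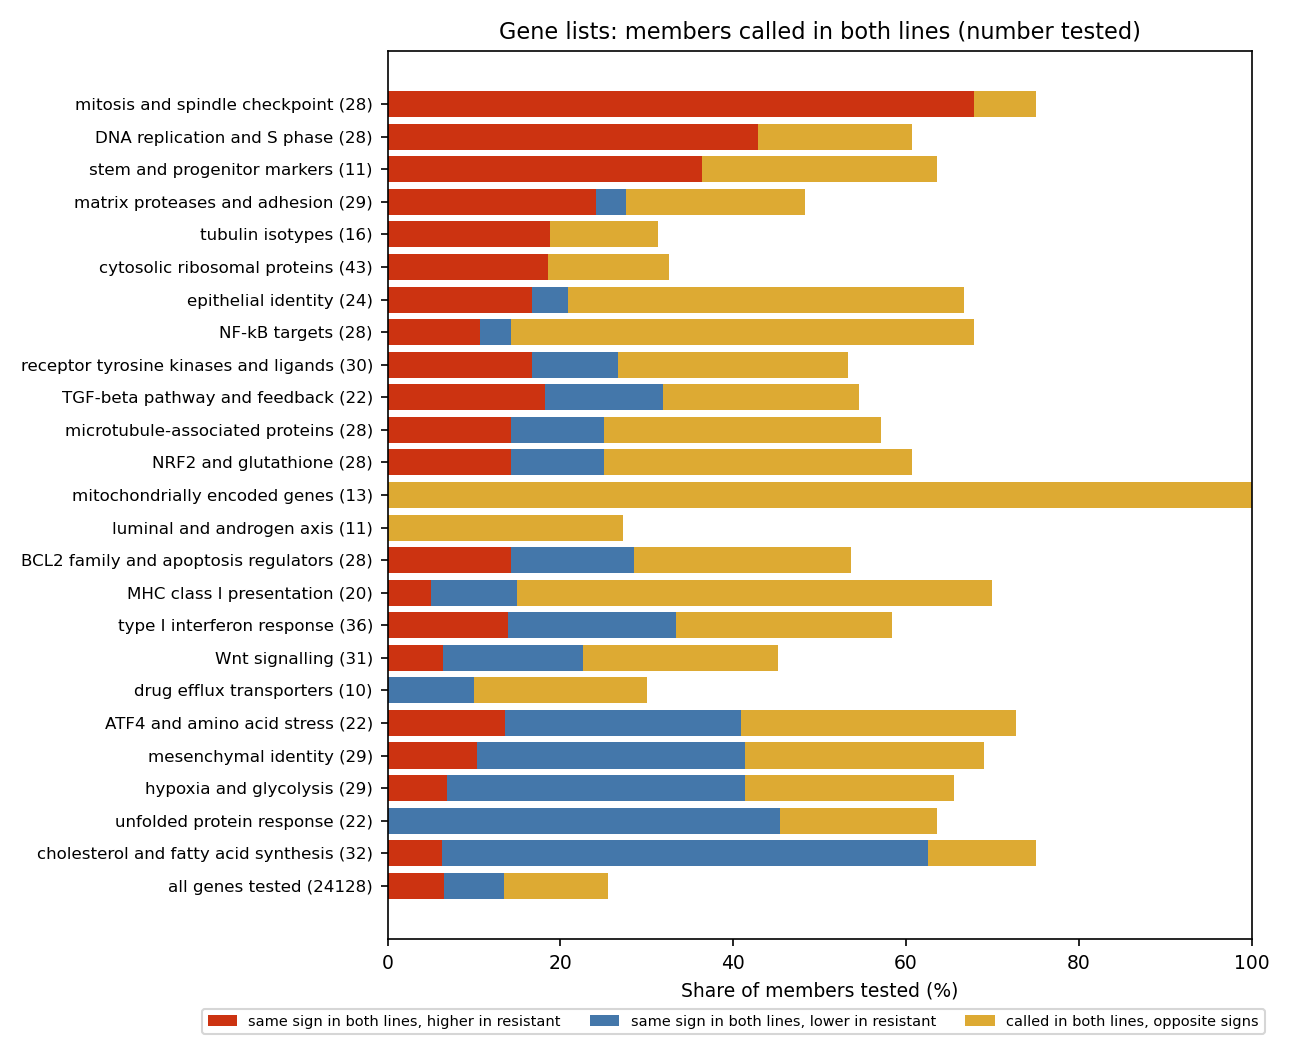
Share of the measured members of 24 gene lists (number measured in parentheses) that were called in both lines, higher in both (red), lower in both (blue) or with opposite signs (yellow), beside all 24128 genes. Mitosis genes lead the share higher in both lines, cholesterol and fatty acid synthesis genes the share lower in both, and all 13 mitochondrially encoded genes changed in opposite directions.

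Drug transport and target genes were examined singly. ABCB1, which encodes the efflux pump P-glycoprotein, had a large change in 1 line alone. It stood at 77.3, 71.9 and 63.5 CPM in resistant DU145, against 0.621, 0.285 and 1.22 CPM in parental DU145. In PC3, ABCB1 had 0, 0.111 and 0 CPM in resistant libraries, against 0.192, 0.172 and 0 CPM in parental libraries, so the groups were apart in DU145 and overlapped near 0 in PC3. Its average of 2.45 ± 1.12 was not called (edgeR adjusted p = 0.112), although the DU145 change was (6.65, edgeR adjusted p = 5.12e-06); the PC3 change was -1.75 (edgeR adjusted p = 0.384) and the difference between lines was called. The average was called by DESeq2 and by limma on FPKM or quantile-normalized values (1.71 to 2.81), and without the third parental DU145 library (2.76); it was 0.30 without the second resistant PC3 library. ABCB1 overlaps RUNDC3B. Of the 10 efflux transporters measured, 2 were higher and 3 lower in the average, ABCA3 alone was called alike in both lines (-1.05 ± 0.05), and ABCC3 and ABCC10 were called in both with opposite signs. In the list of taxane uptake and metabolism genes, 3 of 6 were higher in the average and none lower. SLCO1B3, an uptake carrier of taxanes, rose by 2.34 in DU145 and 0.68 in PC3, and CYP3A5, an enzyme that oxidises docetaxel, by 0.91 and 0.77. SLCO1B3 shares its locus with the readthrough gene SLCO1B3-SLCO1B7.

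Tubulin isotypes were higher in the average for 9 of 16 and lower for 2, with TUBB3, TUBB and TUBA1C higher in both lines, none lower in both, and TUBA4A and TUBB6 opposite. TUBB3, class III beta-tubulin, which in many tumours has been linked to poor response to taxanes, had 235, 207 and 239.5 CPM in resistant DU145, against 121, 96.2 and 113 CPM in parental DU145. In PC3, TUBB3 had 151, 145 and 155 CPM in resistant libraries, against 93.6, 97.4 and 99.5 CPM in parental libraries. No resistant library overlapped a parental one, and the average was 0.84 ± 0.05 (edgeR adjusted p = 2.41e-09). TUBB, the widely expressed class I beta-tubulin, averaged 0.37 ± 0.02, with a smaller rise in PC3 (0.12), and TUBA1C 0.36 ± 0.03, whose shared call was lost in 2 of the 12 fits without 1 library (0.33 to 0.34). Tubulin genes have near-identical copies that may share reads. Of 28 microtubule-associated proteins, 13 were higher and 10 lower in the average, with 4 higher and 3 lower in both lines and 9 opposite. MAPT, the neuronal protein tau, which competes with taxanes for microtubules, averaged -1.36 ± 0.08, and MAP9 1.12 ± 0.06.

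Among BCL2 family and apoptosis regulators, 10 of 28 were higher and 11 lower in the average, with 4 in each direction in both lines and 7 opposite. The death receptors diverged. TNFRSF10A, a receptor of TRAIL, averaged 1.04 ± 0.05 and FAS -1.35 ± 0.16, with FAS at 9.51 ± 2.13 CPM in resistant and 15.7 ± 1.76 CPM in parental libraries in DU145 and 0.501 ± 0.153 CPM in resistant and 1.97 ± 0.258 CPM in parental libraries in PC3. FAS overlaps ACTA2, and its shared call was lost without the first resistant or the first parental DU145 library (average -1.29 and -1.32) and by limma on log2(FPKM + 1), where the average was -0.20.

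Epithelial identity genes split between the lines. Of 24 measured, 15 were higher and 4 lower in the average, yet 4 were higher in both lines, 1 lower, and 11 (45.8%) changed in opposite directions, against 12.1% of all genes. The median change was 1.36 in DU145 and -0.47 in PC3. CDH1, E-cadherin, had 70.1, 75.9 and 77.004 CPM in resistant DU145, against 3.41, 3.42 and 4.599 CPM in parental DU145. In PC3, CDH1 had 1.05, 1.58 and 0.454 CPM in resistant libraries, against 7.21, 10.6 and 11.996 CPM in parental libraries. Resistant DU145 gained it and resistant PC3 lost it, so that an average of 0.50 ± 0.22, not called (edgeR adjusted p = 0.0944), stood for changes of 4.29 and -3.29. DSP, desmoplakin, the anchor of desmosomes, had a called average of 2.70 ± 0.14 from changes of 7.83 and -2.43. Higher in both lines were CDH3, the placental cadherin (2.42 ± 0.12), ESRP1, a regulator of epithelial splicing (4.09 ± 0.56), DSG2, a desmosomal cadherin (0.79 ± 0.04), and TJP1. The shared call of ESRP1 was lost by limma on log2(FPKM + 1), where its average was 0.50. ESRP1 was at 4.22 ± 1.25 CPM in resistant and 0.115 ± 0.0541 CPM in parental libraries in DU145 and 0.589 ± 0.393 CPM in resistant and 0.0706 ± 0.0624 CPM in parental libraries in PC3. KRT19 was the member lower in both.

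Of 29 mesenchymal identity genes, 10 were higher and 15 lower in the average, where 33.5% of genes of at least 5 CPM were lower, with SNAI2 among 3 higher in both lines, 9 lower in both (31.0%, against 12.41%) and 8 opposite. The median change was -1.02 in DU145 and -0.08 in PC3. SPARC, a matrix glycoprotein, fell to 1.05, 1.34 and 1.18 CPM in resistant libraries, against 154, 148 and 176 CPM in parental libraries in PC3. In DU145, SPARC had 0.0904, 1.68 and 1.44 CPM in resistant DU145, against 4.59, 5.197 and 2.51 CPM in parental DU145. Its average was -4.50 ± 0.39, but the shared call was lost without the first or the second parental DU145 library (average -4.46 and -4.40). TWIST2 averaged -1.52 ± 0.18 and fibronectin, FN1, -2.26 ± 0.06. VIM, the intermediate filament vimentin, averaged -0.41 ± 0.02, with 1226 ± 43.1 CPM in resistant and 1417 ± 13.2 CPM in parental libraries in DU145 and 688 ± 16.3 CPM in resistant and 1049 ± 29.4 CPM in parental libraries in PC3. Markers of fibroblasts and smooth muscle were lower in the average for 4 of 9 measured and higher for none; COL1A1 averaged -1.98 ± 0.14 and PDGFRA -2.51 ± 0.34, and both fell in both lines, but the shared call of PDGFRA was lost by limma on log2(FPKM + 1) (average -0.50) or log2(FPKM + 0.1) (-1.41).

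Matrix protease and adhesion genes were higher in both lines for 7 of 29 and lower for 1, and stem and progenitor markers for 4 of 11 and none; both lists hold CD44. ITGB3, the integrin beta-3 chain, was the one lower in both, averaging -2.09 ± 0.19. ITGA2, the collagen receptor subunit, averaged 1.46 ± 0.04, and ALDH1A3, a retinaldehyde dehydrogenase, 2.58 ± 0.12, most of it from DU145 (4.35, against 0.82 in PC3). Of 30 receptor tyrosine kinases and ligands, 5 were higher and 3 lower in both lines and 8 opposite. In the TGF-beta list, 9 of 22 were higher and 9 lower in the average. BAMBI, a decoy receptor of the family, averaged 2.19 ± 0.26, and the differentiation inhibitor ID2 -1.90 ± 0.10. In the Wnt list, 9 of 31 were higher and 12 lower; DKK1, a secreted Wnt inhibitor, rose by 1.23 in DU145 and 1.38 in PC3, with 75.3 ± 1.34 CPM in resistant and 32.1 ± 2.34 CPM in parental libraries in DU145 and 705 ± 29.9 CPM in resistant and 271 ± 25.8 CPM in parental libraries in PC3. WNT9A averaged -2.16 ± 0.13.

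NF-kB targets and MHC class I genes changed oppositely more often than alike. Of 28 NF-kB targets, 15 (53.6%) changed in opposite directions, against 12.1% of all genes and 21.5% of genes of at least 5 CPM, 3 were higher in both lines and 1 lower. ICAM1, an adhesion ligand of leukocytes and a standard NF-kB readout, had 426, 420.1 and 438 CPM in resistant DU145, against 108, 106 and 117 CPM in parental DU145. In PC3, ICAM1 had 114, 112 and 115 CPM in resistant libraries, against 642, 641 and 675 CPM in parental libraries, and the average of -0.28 ± 0.03 was small beside either change. TNFAIP3, the feedback inhibitor A20, rose in both lines (2.63 and 0.98), as did the chemokine CXCL3 (3.24 and 1.68). MHC class I presentation genes changed oppositely for 11 of 20, with 1 higher and 2 lower in both lines. B2M, the shared light chain, fell slightly in both (-0.32 and -0.17), a shared call lost without the first resistant or the second parental PC3 library (average -0.23 and -0.24), and the transporter subunit TAP2 rose in both (0.85 and 0.34). MHC class I genes resemble each other, and reads may be shared. Type I interferon response genes were higher in both lines for 5 of 36 and lower for 7, with 9 opposite; without the first library of resistant PC3 the number lower was 4. Of these interferon-induced genes, IFI44 rose in both lines (average 2.43 ± 0.12) and IFIT1 fell in both (average -2.59 ± 0.11).

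Protein-coding genes of the mitochondrial genome, which encode core subunits of respiration, went in opposite directions. All 13 of its protein-coding genes were called in both lines, each higher in resistant DU145 and lower in resistant PC3. Of their averages, 9 were still called higher, 1 was called lower and 3 were not called. Of the 37 genes of that genome tested, 3 were higher and 7 lower in both lines, none of these protein-coding. MT-CO1, a subunit of cytochrome c oxidase, had 13232, 13014 and 13277 CPM in resistant DU145, against 6560.4, 6356 and 6412 CPM in parental DU145. In PC3, MT-CO1 had 10612, 10258 and 10219 CPM in resistant libraries, against 16432, 16220.0 and 16906 CPM in parental libraries. The changes were 1.03 and -0.67, and those of MT-ND1, of complex I, 1.59 and -0.83. In DU145 the mitochondrial genome supplied 7.08% ± 0.05 of counts in resistant libraries and 4.11% ± 0.17 in parental ones (SD, n = 3 each). In PC3 it supplied 3.504% ± 0.042 in resistant libraries and 5.82% ± 0.20 in parental ones. The equally weighted mean of these differences, 0.331 percentage points, was within what relabelling within lines gives (two-sided exact permutation test, p = 0.595 over 400 relabellings, smallest p attainable 0.005).

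**Figure D5:**
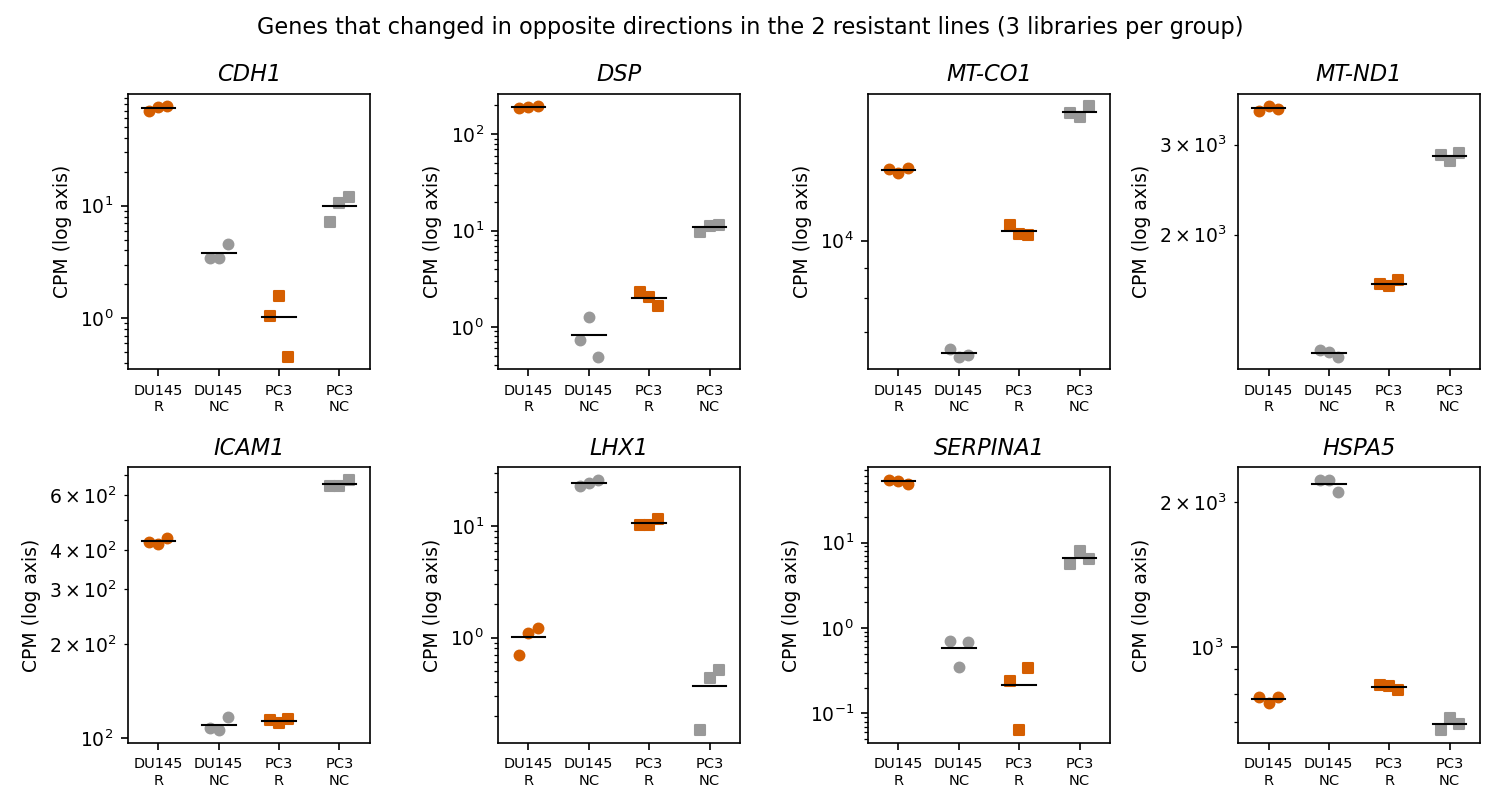
CPM (log axis) of 8 genes that changed in opposite directions in the 2 resistant lines; each point is a library, 3 per group, orange for resistant and grey for parental, circles for DU145 and squares for PC3, and the bar is the group mean. LHX1 and HSPA5 fell in DU145 and rose in PC3, and the other 6 did the reverse.

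The strongest opposite changes, 4 genes of each pattern, left averages that were called for TNS4 (lower), CBLC and SERPINA1 (higher) and not for the other genes. LHX1, a homeobox factor, had 0.693, 1.09 and 1.23 CPM in resistant DU145, against 22.9, 23.9 and 25.96 CPM in parental DU145. In PC3, LHX1 had 10.1, 10.2 and 11.5 CPM in resistant libraries, against 0.148, 0.437 and 0.515 CPM in parental libraries, leaving an average of 0.13 ± 0.20. Its divergent transcript LHX1-DT changed by -4.04 in DU145 and 3.83 in PC3, and the cytokine IL24 by -5.86 and 6.39. SERPINA1, alpha-1 antitrypsin, had 54.5, 52.5 and 48.6 CPM in resistant DU145, against 0.708, 0.345 and 0.692 CPM in parental DU145. In PC3, SERPINA1 had 0.239, 0.0637 and 0.341 CPM in resistant libraries, against 5.63, 7.89 and 6.43 CPM in parental libraries, and its average of 0.78 ± 0.24 was called (edgeR adjusted p = 0.0188). SLC22A17, a receptor of lipocalin-2, changed by 7.45 and -7.17, and LRCH2 by 7.52 and -5.78. TNS4, a focal adhesion protein, had no count in resistant DU145 and 22.5 CPM in parental DU145, at least 1502-fold lower by the same floor, and in PC3 it had 16.04 CPM in resistant and 1.01 CPM in parental libraries. CBLC, a ubiquitin ligase of receptor kinases, had 8.47 CPM in resistant DU145 and no count in parental DU145, at least 558-fold higher, and in PC3 it had 0.0299 CPM in resistant and 1.02 CPM in parental libraries.

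Among genes called in 1 line alone, with at least 1 CPM in a group of that line, the 6 highest and 6 lowest averages belonged to genes nearly absent from the other line. Their fitted averages depend on how counts of 0 are handled, so levels and bounds are given instead. SLC22A3, a polyspecific cation transporter, had 7.09 CPM in resistant DU145 and no count in parental DU145, at least 466-fold higher, while PC3 had 0.0159 CPM in resistant and 0.0148 CPM in parental libraries. GPR27, an orphan receptor overlapping EIF4E3, had 7.25 CPM in resistant DU145 and no count in parental DU145, at least 478-fold higher. BMPER, a secreted regulator of bone morphogenetic proteins, reached 12.03 CPM in resistant DU145 against 0.118 CPM in parental DU145, and CYP4F12, a fatty acid hydroxylase, 1.17 CPM against no count. SLC22A25 and the cancer-testis antigen MAGEA12 did the like in PC3, with 3.6003 and 1.59 CPM in resistant and no count in parental libraries. On the lower side, FOLR1, the folate receptor alpha, had no count in resistant DU145 and 4.35 CPM in parental DU145, and RASAL1, a Ras-inactivating protein, no count and 1.52 CPM. In PC3, FLT1, a receptor of vascular endothelial growth factor, had no count in resistant libraries and 4.65 CPM in parental libraries, at least 320.4-fold lower. FFAR4, a fatty acid receptor, had no count and 4.35 CPM, and the pseudogene ESPNP no count and 1.04 CPM. In the other line of each gene, the groups overlapped. The average call of 9 of the 11 genes named was lost when 1 library was left out, in each case one of the line that was not called. Without it, the averages of SLC22A3 and GPR27 (second resistant PC3 library) were 4.35 and 5.01, that of BMPER (first resistant PC3) 3.32 and that of CYP4F12 (the third resistant PC3) 4.64. The average of SLC22A25 was 5.44 without the third resistant DU145 library. Likewise the averages were -5.63 for FLT1 (the second parental DU145) and -4.55 for ESPNP (the third), and -5.59 for FOLR1 (the third parental PC3) and -4.82 for RASAL1 (the first).

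Lists of other cell types and of prostate lineages are small and were counted in the same way. Of the 9 leukocyte markers in the files, 4 passed the filter on low counts, and of these CD68, a lysosomal protein also found outside leukocytes, averaged 0.67 ± 0.14 and ITGAM -5.72 ± 1.17, with ITGAM at no count in resistant DU145 and 0.108 CPM in parental DU145 and overlapping groups there; by limma on log2(FPKM + 1) the average of ITGAM was -0.28. The shared call of CD68 was lost in 7 and that of ITGAM in 8 of the 12 fits without 1 library (averages 0.62 to 0.69 and -5.76 to -5.46). Of 7 endothelial markers, 1 was higher and 1 lower in the average, and ENG was lower in both lines (-1.99 ± 0.18), a shared call lost in 7 of the 12 fits without 1 library (averages -2.03 to -1.89). Of 11 luminal and androgen-axis genes, none changed alike in both lines and 3 changed oppositely, and the androgen receptor gene was not called. Of 8 neuroendocrine markers, 1 was higher and 3 lower in the average, and ENO2, which is also a glycolytic enzyme, was lower in both lines (-1.39 ± 0.06). Of 8 genes in the line identity list, 3 were lower in both lines, among them CTNNA1 (-0.41 ± 0.06), and RB1 (0.51 ± 0.05) was the one higher in both. In PC3 the fall of CTNNA1 is one between low levels, 2.23 CPM in resistant and 2.91 CPM in parental libraries. Its average (-0.28) was not called under quantile-normalized voom. Whether other cells contributed to any list was not tested beyond these counts.

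Besides the overlaps given above, part of the counts of further genes could belong to another gene at the same place. CRB3, SLC22A25, IL24, SLC7A11, CEBPB, TNFRSF10A, CANX, TNFAIP3, OSGIN1, ID2, DKK1, RPL5, RPL4, ABCA3, DSG2, CDH3, PFKFB4, CTNNA1, RB1, ITGB3, SPARC, MAPT, ENO2, TUBA1C, IFIT1, SYVN1, VIM, CDH1, TCOF1, NEK2, CENPF, ALDH6A1, PDIA6 and HSP90B1 overlap a gene, pseudogene or antisense gene with a symbol of its own. PCDHB10, SLC22A3, ESPNP, LHX1, LRCH2, RFC3, RRM2, GINS3, TAP2, WNT9A, ENG, COL1A1, PDGFRA, CD68, MAP9, EPHA2, ITGA2, ALDH1A3, TUBB, TUBB3, EDEM1, ICAM1, TOP2A, CCNB2 and BNIP3 overlap only clone-named genes or small RNAs.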

How the data were processed

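RNA from parental and docetaxel-resistant DU145 and PC3 cells, 3 libraries per group, was sequenced after oligo(dT) selection and dUTP marking of the second strand, per the labels' protocols. Per the submitters' processing notes, edgeR, DESeq2, StringTie 1.3.4d, HISAT2 2.0.4 and cutadapt 1.9 were used, in an order not stated, with hg18 as the build. Gene positions, however, match GRCh38: 37369 of the 37385 genes shared with GENCODE 29 overlap their position there. Which program counted reads, with what strand setting and on which annotation, is not given in the sources used here. For each library the authors deposited the count of every one of 38611 genes beside its FPKM, which 71 genes lack.

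Counts were filtered with filterByExpr (24128 genes), TMM-scaled and fitted with edgeR 4.0.16 in R 4.3.3, with 1 mean per group and 8 residual degrees of freedom (estimateDisp and glmQLFit, robust). The average contrast weights each line's resistant minus parental change by 0.5. Contrasts were tested two-sided with the quasi-likelihood F test, with Benjamini-Hochberg adjustment over all genes tested, and called at an adjusted p under 0.05. A gene changed alike if the average and both line contrasts were called with the same sign. The standard error is the change divided by the square root of F. Per-library shares were tested by exact permutation within lines. The procedure was also run on simulated counts, in which few genes changed and none in opposite directions. These data differ from that setting, so the run does not test the calls made here.

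The genes named were the 10 highest and 10 lowest by the smaller line change among those that changed alike with at least 1 CPM in the higher group of each line; the 6 highest and 6 lowest averages among genes called in 1 line; 4 opposite genes of each pattern; up to 3 that changed alike in each of 30 gene lists; ABCB1, TUBB3, CDH1, VIM and CTNNA1; the 6 smallest average p-values; and further list members, chosen after their values were seen, to account for a list. FN1, EGFR, TPX2 and the genes of the motif windows are list members. Symbols of readthrough, clone and LINC genes were left out of the rankings. Some genes that these rules chose are not reported here. The contrast, its lists and its genes were chosen with earlier results of these data known. Alternatives covered scaling, filter, test, threshold, an additive model, a replicate block and leaving out each library (DESeq2 1.42.0, limma 3.58.1, and limma on log2 of FPKM plus 1 or 0.1). Promoter windows came from RefSeq on GRCh38.p14.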

Additional observations from a re-analysis of the deposited data

Results flagged for a closer look

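The change in PC3 minus the change in DU145 was itself tested for every gene, in the same model (edgeR quasi-likelihood test, adjusted p under 0.05). It was called for 77 of the 127 genes described with values above and for 42.1% of all genes tested. Many of the genes described were chosen by their changes in each line, so these shares are not a like comparison. The differences below are in log2 units, and a positive one means that the change with resistance was more positive in PC3. With 3 libraries in each group, no outlier criterion was applied to the values of single genes.

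Of these genes, 56 changed with the same sign in both lines, so that the shared direction came with an unequal size. In the 27 with the larger change in PC3, the differences were as follows. SPARC differed by -5.12, KCNK15 by -4.59, NKILA by -2.83, ENG by -2.60, ID2 by -2.43 and COL1A1 by -2.35. TM7SF2 differed by -1.37, FAS by -1.25, CDC20 by 1.22, OSGIN1 by 1.09, SREBF2 by -1.03 and GINS3 by 1.01. MAPT differed by -1.01, ENO2 by -0.94, ABCA3 by -0.77, MAP9 by 0.75, TOP2A by 0.71 and TNFRSF10A by 0.68. CCNB2 differed by 0.67, PFKFB4 by -0.50, EDEM1 by -0.48, TUBA1C by 0.43, VIM by -0.40 and TCOF1 by 0.36. LAMB3 differed by 0.34, TPX2 by 0.24 and PDIA6 by -0.23. In the 29 with the larger change in DU145 they were as follows. CYP27C1 differed by 7.61, ALDH1A3 by -3.53, MMP14 by -3.41, STC1 by -2.61, IFIT1 by 2.61 and FN1 by 1.85. ITGB3 differed by 1.82, SLCO1B3 by -1.66, TNFAIP3 by -1.64, EPHA2 by -1.58, EPAS1 by -1.56 and CXCL3 by -1.56. WNT9A differed by 1.42, HSP90B1 by 1.34, IFI44 by -1.28, ITGA2 by -0.98, DSG2 by -0.85 and CANX by 0.73. POMP differed by -0.67, CDH3 by -0.65, STARD4 by 0.63, TAP2 by -0.51, TUBB by -0.50 and TUBB3 by -0.41. RB1 differed by -0.37, RPL4 by -0.33, SYVN1 by 0.28, EFHD2 by -0.22 and PLAU by -0.22.

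Opposite changes in the lines gave the differences of a further 16 genes. TNS4 differed by 17.52, CBLC by -17.14, SLC22A17 by -14.62, LRCH2 by -13.31, IL24 by 12.25 and SERPINA1 by -11.39. DSP differed by -10.26, LHX1 by 9.45, LHX1-DT by 7.87, CDH1 by -7.57, ICAM1 by -4.48 and MT-ND1 by -2.42. NEK2 differed by 2.04, HSPA5 by 1.74, MT-CO1 by -1.70 and CENPF by 0.91.

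For the 5 others, 1 line alone was called. SLC22A3 differed by -11.88, FFAR4 by -10.78, GPR27 by -10.25, ABCB1 by -8.40 and MAGEA12 by 7.41.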

How the results depend on the processing

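Of 5186 genes higher and 5209 lower in the average, an additive model of line and state, in which the difference between lines counts as spread, called 2909 and 2994. With a change of at least 2-fold the numbers were 1176 and 1468, and with 2-fold in each line 232 were higher and 298 lower in both and 505 opposite. Under the other alternatives these counts stayed within 1.5 times of those reported. Single averages moved more: by over 1.5 times for 43 of 111 under limma on log2(FPKM + 1) and 22 under log2(FPKM + 0.1), scales that understate low genes, for 4 under quantile-normalized voom and for 1 under the additive model (ABCB1, 4.46). Leaving out 1 library at a time gave 4790 to 5047 higher and 4924 to 5132 lower averages, 1387 to 1532 genes higher and 1542 to 1655 lower in both lines, and 2673 to 2816 opposite; 2889 to 3037 of the 3243 genes that changed alike kept that call. Library totals without TMM moved the split of those that changed alike to 1427 higher and 1857 lower. Resistant and parental libraries with the same number did not deviate together (correlations -0.10 to 0.04), so the numbers do not pair them; a fit with the replicate number as a block called 4959 higher and 4960 lower averages, 1501 higher and 1593 lower in both lines, and 2786 opposite. Under no alternative did the average of a described gene reverse its sign, or, for genes called oppositely, the change in either line. Averages of the opposite genes and line changes of the other genes were not followed in this way. The call in both lines was lost under log2(FPKM + 1) for ESRP1 (0.50), PDGFRA (-0.50), FAS (-0.20), ITGAM (-0.28), CCNB2 (0.49), TUBA1C (0.33) and CTNNA1 (-0.27), under quantile-normalized voom for RPLP1, TUBB, TUBA1C, ITGAM and CTNNA1, and with the block for SPARC and CCNB2; CCNB2, CD68, ITGAM, PDGFRA and TUBA1C also lost it under other scalings, filters or tests. Leaving out the third resistant PC3 library gave CRB3 an average of -6.73, against -4.28. CTNNA1 lost its average call under quantile-normalized voom (-0.28) and FFAR4 under the additive model (-4.67). Quantile normalization set the PC3 change of MT-CO1, a very abundant transcript, to 0. The list medians of NF-kB targets, receptor tyrosine kinases, leukocyte and neuroendocrine markers changed sign with the scaling. Low-count genes, with an excess of variance over independent counts, limit the bounds given, and 3 libraries per group limit all tests.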

Other observations

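The pathway terms that the authors' tables attach to genes were ranked, after the data were seen, by the share of tested members that changed alike in both lines. Of 279 terms with at least 20 tested genes, ribosome biogenesis had the largest share higher in both lines, 31 of 75 genes (41.3%), with 2 lower. It includes TCOF1, the treacle protein of ribosomal RNA transcription, which averaged 0.89 ± 0.03. Proteasome genes followed with 17 of 42 higher (40.5%) and none lower, among them the assembly factor POMP at 0.94 ± 0.05. Mismatch repair (9 of 23), DNA replication (14 of 36) and spliceosome (41 of 131) came next, the last with the splicing factor SRSF7 at 0.57 ± 0.03. The share over all genes tested was 6.54%, and over genes of at least 5 CPM 11.98%. Of these terms, spliceosome had 21 genes called with opposite signs, ribosome biogenesis 6 and each of the others 5. On the lower side, terpenoid backbone biosynthesis, the start of the sterol pathway, had 6 of 20 genes lower in both lines, mitophagy 17 of 64, unsaturated fatty acid synthesis 7 of 27, fructose and mannose metabolism 8 of 32 and degradation of branched-chain amino acids 11 of 45, against 6.9% of all genes. Mitophagy also had 10 genes higher in both lines and unsaturated fatty acid synthesis 3, and each of the other lower terms had 1. Called with opposite signs were 14 genes of branched-chain amino acid degradation, 7 of unsaturated fatty acid synthesis and 6 of mitophagy. For fructose and mannose metabolism the number was 5, and for terpenoid backbone biosynthesis 4. Of genes of at least 5 CPM, 12.41% were lower in both lines. BNIP3, a mitochondrial receptor of autophagy, averaged -1.09 ± 0.04 and ALDH6A1, of valine degradation, -0.998 ± 0.116. These terms share genes and most are well expressed, and no test was made of them.

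By nuclear chromosome, the share of tested genes higher in both lines was largest on chromosome 13 (69 of 417, 16.6%) and chromosome 20 (80 of 608, 13.2%). Among the nuclear chromosomes, the share lower in both lines was largest on chromosome 3 (178 of 1341, 13.3%), chromosome 11 (150 of 1216, 12.3%) and chromosome 17 (150 of 1480, 10.1%). Over all genes tested, 6.54% were higher and 6.9% lower in both lines, and over genes of at least 5 CPM 11.98% and 12.41%. The chromosomes were not compared at a like level of expression. DNA copy number was not measured in these files, and its part in these shares was not tested.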
